A study of Rattus norvegicus with 6 samples.

Results

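Outer segment structure genes encode proteins that build, anchor and supply the stack of membrane discs in which rods and cones capture light. Of the 9 genes chosen by name for this group (Rom1, Prph2, Prom1, Cdhr1, Rp1, Rp1l1, Rpgr, Tulp1 and Reep6), 8 had a row among the 28358 genes of the deposited tables, all 8 passed the filter on low counts that left 13242 tested genes, and Prph2 was not analysed here. They were measured by RNA sequencing of the dissected neuroretina of male Goto-Kakizaki (GK) rats aged 14 months, a lean inbred strain with spontaneous type 2 diabetes. In the spironolactone group (3 samples) a single injection into the vitreous had placed 5 µL of microspheres of the degradable polymer PLGA holding 6.2 µg of spironolactone, a mineralocorticoid receptor antagonist. The non-loaded group (3 samples) had received microspheres without the drug, and all retinas were taken 2 months after injection. Animals of both groups were diabetic-strain rats, so no sample stands for a non-diabetic retina or for an eye without microspheres.

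The outer segment is a modified cilium that is renewed throughout life: new discs form at its base and old ones are shed at its tip. Tetraspanin proteins bend the membrane into the disc rim, a prominin and a cadherin act where new discs open from the plasma membrane, microtubule-binding proteins of the doublecortin family keep the ciliary axoneme and the discs aligned, and proteins of the connecting cilium and of the inner segment pass cargo to the discs. Inherited defects in each of these genes are known causes of human photoreceptor degeneration.

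Libraries held between 9996198 and 12589466 expected counts, the read counts per gene that the RSEM program estimates. Whether the samples of a group are separate animals is not labelled, and p-values therefore refer to the spread among these samples, part of which may be technical. The edgeR fit draws the spread of each gene towards that of all genes. Its p-values, SE and intervals are therefore not the spread of that gene's own libraries alone, which the SD of each group gives. Rod markers other than the 8 genes were all measured (14 of 14 tested), whereas 0 of 6 lens markers passed the filter on low counts. Mitochondrially encoded genes took between 4.63% and 5.84% of the counts in spironolactone libraries and between 4.75% and 5.35% in non-loaded libraries.

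The question put by the comparison was how retinal expression of these genes differed between spironolactone-loaded and non-loaded microspheres. Rom1, which encodes a tetraspanin of the disc rim, and Reep6, which encodes a protein of the endoplasmic reticulum that rods need for membrane protein transport, were lower with spironolactone, at 68.6% and 64.5% of the non-loaded level. The other 6 genes, from the base of the discs, the axoneme, the connecting cilium and the transport machinery, did not pass the test, and their fitted levels lay between 91.3% and 120% of the non-loaded level. Thus 2 of 8 genes were called lower and 0 higher at an adjusted p below 0.05. Of all 13242 tested genes 2.63% were called in either direction, 0.763% lower and 1.87% higher. The genes of the group were chosen with earlier results of these data known, so these shares do not test an excess. The median log2 fold change of the 8 genes was 0.03, beside −0.0027 over all tested genes.

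**Figure D1:**
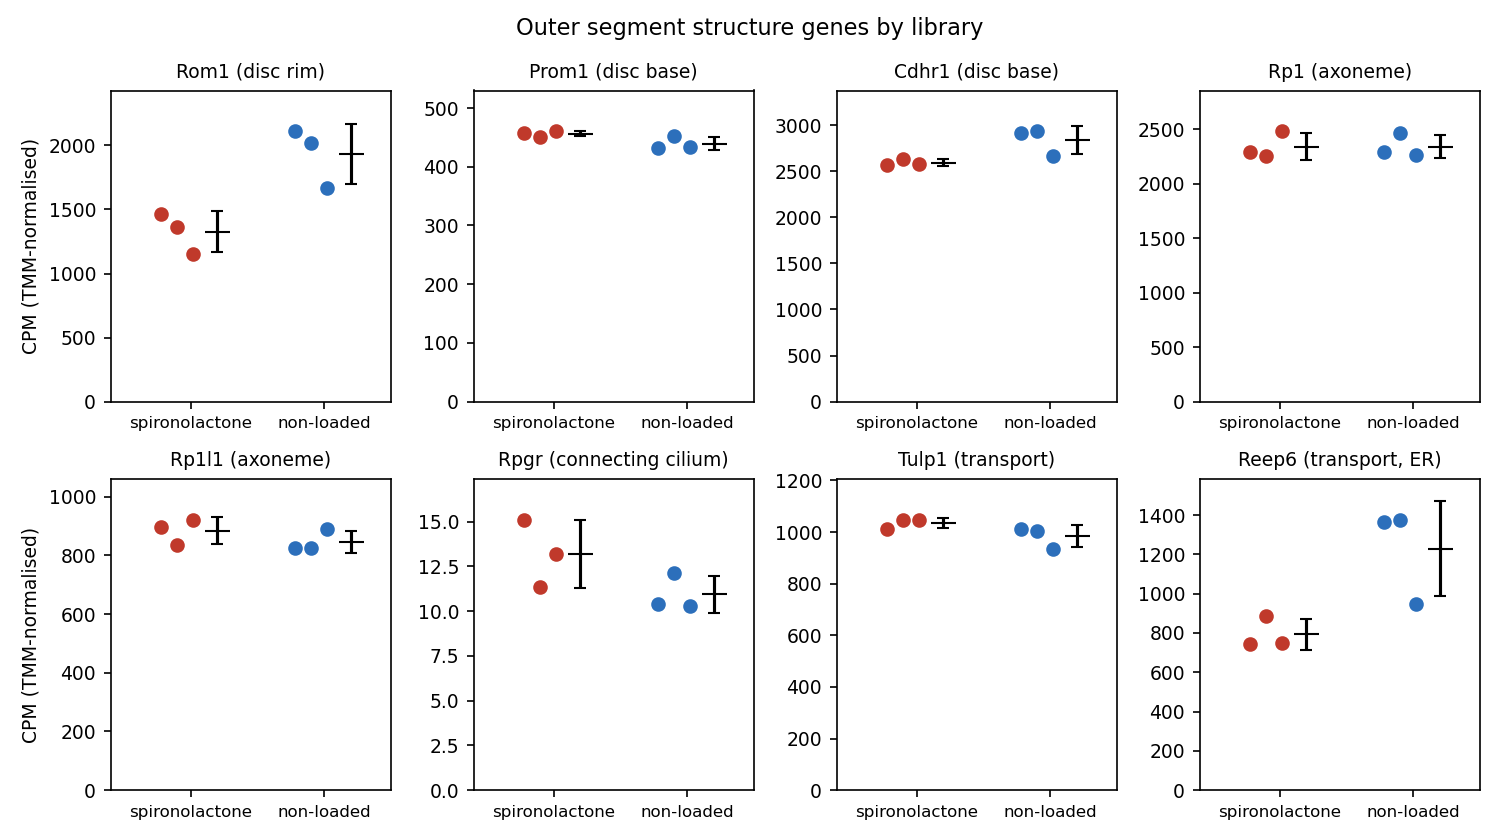
TMM-normalised counts (CPM, vertical axes starting at 0) of the 8 outer segment structure genes in each library, with 3 spironolactone libraries in red and 3 non-loaded libraries in blue. Bars beside the points give the mean and SD of each group. The spironolactone points of Rom1 (1149 to 1464 CPM) and Reep6 (744 to 886 CPM) all lie below the non-loaded points, whereas those of Prom1 and Rp1 overlap them.

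At the disc rim, Rom1 measured 1464, 1362 and 1149 CPM (counts divided by the scaled library total) in the spironolactone libraries, against 2111, 2021 and 1666 CPM in the non-loaded libraries. Every spironolactone library was lower than every non-loaded one, and non-loaded replicate 3 stood nearest to the spironolactone libraries. The means were 1325 ± 161 CPM with spironolactone and 1933 ± 235 CPM with non-loaded microspheres (SD, n = 3 each). Rom1 thus fell by 0.54 ± 0.09 on the log2 scale (SE; edgeR quasi-likelihood test, adjusted p = 0.00242). It was the most abundant of the 8 genes per unit of length, with 1750 ± 238 TPM (the deposited level corrected for transcript length) with spironolactone and 2515 ± 270 TPM without the drug, and its mean TPM over all libraries was the 24th highest of all tested genes. The Rom1 protein is known to assemble with peripherin 2, the product of Prph2, whose transcript was not analysed here.

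Reep6, the other gene that fell, had 744, 886 and 747 CPM in the spironolactone libraries, against 1364, 1377 and 948 CPM in the non-loaded libraries. The groups did not overlap, but non-loaded replicate 3, at 948 CPM, was closer to the highest spironolactone library than to the other non-loaded ones. The group means were 792 ± 81 CPM with spironolactone and 1229 ± 244 CPM without it (SD, n = 3 each). Reep6 fell by 0.63 ± 0.11 on the log2 scale (SE; edgeR, adjusted p = 0.0034). Per unit of length it averaged 736 ± 63.5 TPM with spironolactone and 1127 ± 203 TPM with non-loaded microspheres.

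Both calls held when any single library was left out. The adjusted p of Rom1 was then lowest on removal of non-loaded replicate 3 (0.000163) and highest on removal of spironolactone replicate 2 (0.0298). For Reep6 it was lowest on removal of non-loaded replicate 3 (4.72e-06) and highest on removal of non-loaded replicate 1 (0.0361). Neither gene passed with robust empirical Bayes shrinkage (adjusted p = 0.0707 for Rom1 and 0.218 for Reep6) or on log2(TPM + 1) with limma (0.0705 for Rom1 and 0.0666 for Reep6). Titles number the spironolactone samples 8, 10 and 11 and the non-loaded samples 2, 3 and 4, and Rom1 CPM decreased from each of these numbers to the next. With that number as a covariate the log2 fold change was 0.30 ± 0.20 for Rom1 and −0.19 ± 0.37 for Reep6 (SE; adjusted p = 0.9999 for both), and the number and the treatment cannot be told apart in this design.

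**Figure D2:**
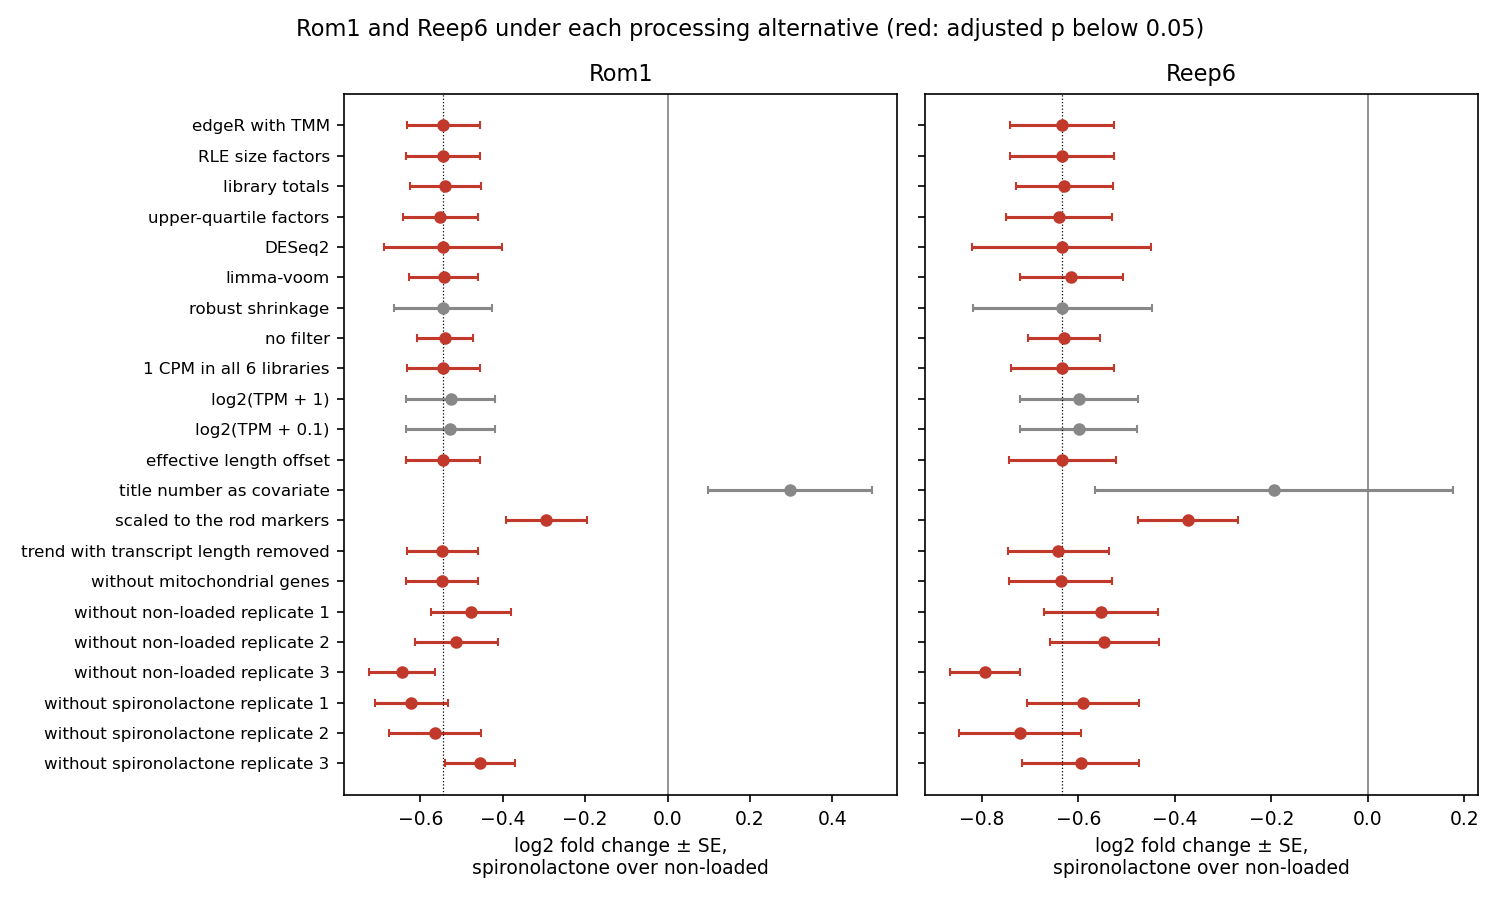
Log2 fold change of Rom1 (left) and Reep6 (right), spironolactone over non-loaded, with its SE as bars, under the main edgeR fit with TMM scaling (top row, dotted line) and under each alternative. Red points passed an adjusted p of 0.05 and grey ones did not; Rom1 is above 0 with the title number as covariate, at 0.30.

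The sequence just before the transcription start was read for the members found in the RefSeq promoter table of the GRCr8 assembly, which held 6 of the 8 measured genes. This is a later assembly than the rn6 build named by the submitters, and its coordinates apply to these sequences only. Shown are the 250 bases before the start of the genes that fell, Rom1 (chr1:215255164-215255413, minus strand) and Reep6 (chr7:10031272-10031521, minus strand). Beside them stand 2 members that did not pass, Cdhr1 (chr16:12883580-12883829, minus strand) and Tulp1 (chr20:6425834-6426083, minus strand). Mean non-loaded TPM of Cdhr1 (1244) and Tulp1 (1088) was near that of Reep6 (1127) but below that of Rom1 (2515). Capitals mark the GC box GGGCGG, the core recognised by Sp-family factors, on either strand (CCGCCC on the strand shown where reversed).
Rom1: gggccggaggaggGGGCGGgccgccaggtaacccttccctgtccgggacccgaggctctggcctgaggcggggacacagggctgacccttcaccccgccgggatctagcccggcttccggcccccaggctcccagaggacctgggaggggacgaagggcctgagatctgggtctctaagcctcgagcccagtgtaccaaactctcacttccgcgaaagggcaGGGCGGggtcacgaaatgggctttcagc
Reep6: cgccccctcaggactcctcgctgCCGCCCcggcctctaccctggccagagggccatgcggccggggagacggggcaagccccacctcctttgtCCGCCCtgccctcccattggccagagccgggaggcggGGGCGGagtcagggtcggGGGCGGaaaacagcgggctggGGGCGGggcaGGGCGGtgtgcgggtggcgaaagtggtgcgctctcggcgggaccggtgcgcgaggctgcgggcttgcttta
Cdhr1: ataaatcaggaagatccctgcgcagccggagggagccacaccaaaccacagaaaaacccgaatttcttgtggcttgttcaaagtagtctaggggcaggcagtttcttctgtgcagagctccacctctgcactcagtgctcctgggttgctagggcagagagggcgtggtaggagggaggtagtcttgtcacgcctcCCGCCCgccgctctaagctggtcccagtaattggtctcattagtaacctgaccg
Tulp1: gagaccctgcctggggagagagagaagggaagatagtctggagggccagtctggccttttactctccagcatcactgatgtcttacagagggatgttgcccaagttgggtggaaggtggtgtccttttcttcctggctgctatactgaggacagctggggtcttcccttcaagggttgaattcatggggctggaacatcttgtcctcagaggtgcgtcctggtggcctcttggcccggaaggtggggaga

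The GC box occurred 2 times in the Rom1 window, 6 times in the Reep6 window, 1 time in the Cdhr1 window and 0 times in the Tulp1 window. It also occurred 2 times at the first of the 2 start sites of Prom1, which did not pass, and 0 times at the second and in the Rpgr window. Of all 33469 windows of this length in the table, 30.5% held at least 1. The Rom1 window was 68.8% G and C and that of Reep6 74.8%, against 55.6% for Cdhr1 and 56.0% for Tulp1, beside a median of 51.2% over all windows. These 4 windows were chosen with the fold changes known. The core TAATCC, which the photoreceptor factor Crx and its relative Otx2 recognise, was in 0 of the 7 windows of the 6 measured genes (Prom1 has 2 start sites) and in 6.34% of all windows, on either strand. The sequence TGCTGA, a part of the site of the rod factor Nrl, was likewise in 0 of these 7 windows and in 15.1% of all. The window of Prph2, whose transcript was not analysed here, held TAATCC 1 time (at −133), TGCTGA 0 times and the GC box 0 times.

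At the base of the outer segment, Cdhr1 encodes a photoreceptor cadherin that links the growing discs to the inner segment. It had 2561, 2634 and 2574 CPM in the spironolactone libraries, against 2916, 2934 and 2661 CPM in the non-loaded libraries. The groups did not overlap, but the gap between spironolactone replicate 2 and non-loaded replicate 3 was small. The log2 fold change was −0.13 ± 0.06 (SE; edgeR, adjusted p = 0.281), an interval of 2 SE on either side running from −0.25 to −0.01, so Cdhr1 did not pass. Prom1, which encodes a pentaspan membrane protein at the edge of newly opening discs, had 458, 451 and 461 CPM with spironolactone and 432, 452 and 434 CPM without it. Its log2 fold change was 0.05 ± 0.05 (SE; adjusted p = 0.682), with an interval of −0.05 to 0.16.

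Rp1 and Rp1l1 encode related doublecortin-domain proteins that bind the microtubules of the photoreceptor axoneme and, in the mouse, act together in holding discs in order. Rp1 measured 2286, 2249 and 2481 CPM with spironolactone, against 2287, 2461 and 2266 CPM with non-loaded microspheres. Its means were 2339 ± 124 CPM with spironolactone and 2338 ± 107 CPM without it (SD, n = 3 each), and the log2 fold change was 0.00042 ± 0.06 (SE; edgeR, adjusted p = 0.998; interval −0.12 to 0.12). Rp1l1 had 897, 834 and 922 CPM with spironolactone and 825, 825 and 889 CPM without it, a log2 fold change of 0.06 ± 0.06 (SE; adjusted p = 0.666; interval −0.06 to 0.18). The libraries of the groups overlapped for both genes.

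Per unit of length, the ratio of Rp1 to Rp1l1 was 2.02, 2.14 and 2.14 in the spironolactone libraries, against 2.20, 2.37 and 2.02 in the non-loaded libraries. The mean ratio was 2.10 ± 0.07 with spironolactone and 2.20 ± 0.17 without it (SD, n = 3 each). The difference of the log2 ratios was −0.06 (exact permutation test, two-sided, p = 0.50, where the smallest p this design allows is 0.10). Transcripts of Rp1 were therefore counted at more than 2 times the level of Rp1l1 in all 6 libraries.

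Among the genes of the connecting cilium and of cargo transport, Tulp1 encodes a tubby-like protein that photoreceptors need to move membrane proteins towards the outer segment. It had 1014, 1045 and 1048 CPM in the spironolactone libraries, against 1013, 1004 and 934 CPM in the non-loaded libraries. The spironolactone libraries were all higher, the lowest of them by less than 1 CPM. The log2 fold change of 0.07 ± 0.06 (SE; edgeR, adjusted p = 0.568; interval −0.04 to 0.19) did not pass. Rpgr encodes a regulator of the connecting cilium and was by far the lowest of the 8 genes, with 103 to 162 expected counts per library. It had 15.1, 11.3 and 13.2 CPM with spironolactone and 10.4, 12.1 and 10.3 CPM without it, with overlapping groups and a log2 fold change of 0.27 ± 0.15 (SE; adjusted p = 0.404; interval −0.03 to 0.56). At this depth counting error alone gives a coefficient of variation of 8.57% for Rpgr and at most 1.40% for the other 7 genes, while the CPM of Rpgr varied between libraries by 14.3% with spironolactone and 9.39% without it.

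**Figure D3:**
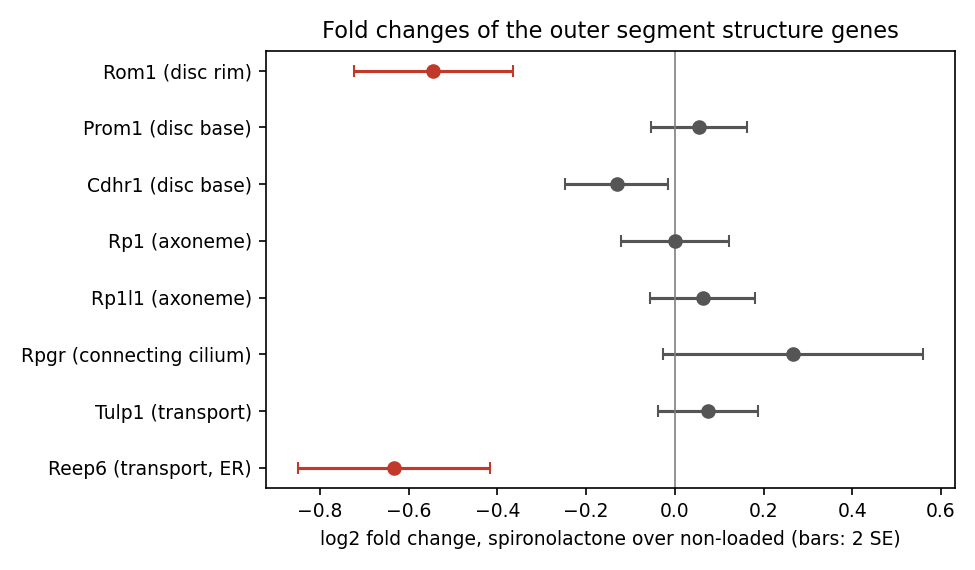
Log2 fold change of the 8 genes, spironolactone over non-loaded, from the edgeR fit, with bars of 2 SE on either side. Rom1 (−0.54) and Reep6 (−0.63), in red, passed an adjusted p of 0.05; the 6 genes in grey, from −0.13 (Cdhr1) to 0.27 (Rpgr), did not.

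The groups did not overlap, with spironolactone lower, for 3 of the 8 genes (Rom1, Cdhr1 and Reep6), and with spironolactone higher for 1 (Tulp1). Over all tested genes the corresponding shares were 9.48% and 11.4%. Together with the thinly counted Rpgr, the genes that fell were those whose libraries differed most within a group. The coefficient of variation of CPM was 12.1% with spironolactone and 12.2% without it for Rom1, and 10.2% and 19.8% for Reep6. For Prom1, Cdhr1, Rp1, Rp1l1 and Tulp1 it lay between 1.08% and 5.32% with spironolactone and between 2.46% and 5.39% without it. Non-loaded replicate 3 was the non-loaded library with the lowest level of Rom1, Cdhr1, Rp1, Rpgr, Tulp1 and Reep6.

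**Figure D4:**
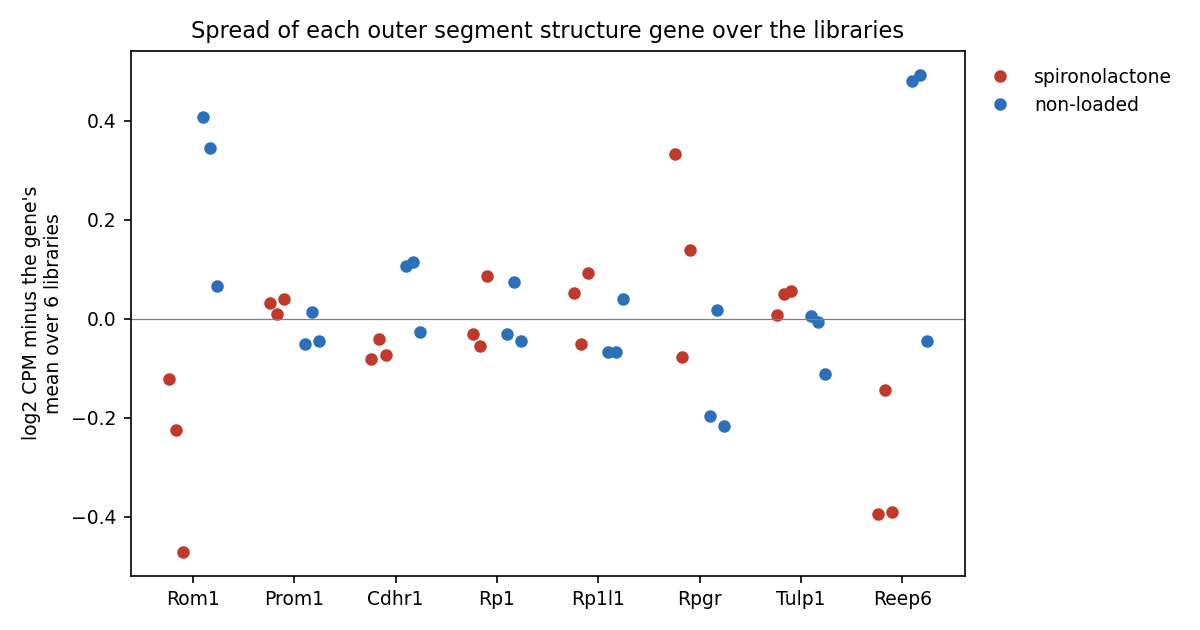
Log2 CPM of each gene in each library minus that gene's mean over the 6 libraries, with spironolactone in red to the left of non-loaded in blue. Rom1 and Reep6 spread most widely, with all red points below all blue ones; Rpgr also varies, at 103 to 162 expected counts, and the points of the other 5 genes stay closer to 0.

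Ordered by mean TPM, the spironolactone libraries gave Rom1 (1750), Tulp1 (1160), Cdhr1 (1152), Reep6 (736), Rp1 (626), Rp1l1 (298), Prom1 (247) and Rpgr (9.65). The non-loaded libraries gave Rom1 (2515), Cdhr1 (1244), Reep6 (1127), Tulp1 (1088), Rp1 (617), Rp1l1 (282), Prom1 (235) and Rpgr (7.86). Neighbours in these orders overlapped in range for Tulp1 and Cdhr1 with spironolactone, and, without it, for Cdhr1 and Reep6 and for Reep6 and Tulp1. Transcripts of Rom1 per transcript of Cdhr1 numbered 1.70, 1.53 and 1.32 in the spironolactone libraries, against 2.15, 2.05 and 1.86 in the non-loaded ones, and these ranges did not overlap. The ratio of Reep6 to Rom1 was 0.358, 0.459 and 0.458 with spironolactone and 0.455, 0.480 and 0.401 without it, so the genes that fell kept overlapping proportions to each other. These ratios were chosen after the fold changes were known and were not tested.

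The annotation used by the submitters held a single transcript for 7 of the 8 genes, so isoforms of those genes, Reep6 and Rpgr included, cannot be told apart. Prom1 had 5 transcripts, and its mean transcript length weighted by abundance lay between 3530 and 3553 bases in the spironolactone libraries and between 3530 and 3549 bases in the non-loaded libraries. Expected counts of the 8 genes were whole numbers in every library. Rom1 (1546 bases) and Reep6 (2125 bases) have shorter transcripts than Cdhr1 (4273 bases), Rp1 (6991 bases) and Rp1l1 (5583 bases), and Tulp1 measures 1792 bases. Over all tested genes the median length was 1742 bases for genes called lower and 2878 bases for genes called higher. With a trend of each library against transcript length removed, an alternative chosen after seeing the data, Rom1 fell by 0.55 and Reep6 by 0.64 on the log2 scale (edgeR, adjusted p = 0.000892 and 0.00141).

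Other rod genes moved with Rom1 and Reep6. Of the 14 rod markers, 7 were called lower and 0 higher, beside 0.763% and 1.87% of all tested genes. Their median log2 fold change was −0.26. The summed level of the rod markers was 42198 to 47045 CPM in spironolactone libraries, against 50823 to 62475 CPM in non-loaded libraries. In bulk tissue, fewer rods and less RNA per rod cannot be told apart, and neither was tested as a cause of these differences.

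When libraries were scaled to the rod markers, an alternative chosen after seeing the data that put the median of all tested genes at 0.25, Rom1 fell by 0.29 and Reep6 by 0.37 on the log2 scale (edgeR, adjusted p = 0.0202 and 0.00555). On that scale Prom1 (0.31), Rp1 (0.26), Rp1l1 (0.31), Tulp1 (0.33) and Rpgr (0.52) were called higher, with adjusted p between 0.011 and 0.0402, and Cdhr1 (0.12, adjusted p = 0.31) was not called. After subtraction of the median of all tested genes in each fit, the 8 log2 fold changes differed from their values with TMM scaling by at most 0.01 after rounding. Rescaling libraries shifts the log2 fold changes of all genes nearly alike, so this agreement follows from the method. The calls made on that scale include this shift.

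Among the 9 cone markers 0 were called (median −0.13), but 8 had a log2 fold change below 0, beside 50.7% of all tested genes. Gngt2 came nearest to a call (−0.46 ± 0.12 on the log2 scale, SE, edgeR, adjusted p = 0.0512). The summed level of the cone markers was 239 to 277 CPM with spironolactone and 273 to 312 CPM without it. Of 8 tested markers of the pigment epithelium, the layer next to the outer segments, 0 were called (median −0.41). Their sum was 61.9 to 115 CPM with spironolactone, against 107 to 128 CPM without it, and the pigment cell genes Tyr and Mlana had at most 1 and 2 counts in any library. Best1, Rdh5 and Pmel had at most 31, 30 and 14 counts. Spironolactone replicate 3 had 17.7 CPM of Ttr, against 55.1 and 44.6 CPM in replicates 1 and 2 of that group. Rpe65 and Rgr were also lowest in that library, whereas Slc6a13 was highest there, at 13.7 CPM. Among markers of other retinal cells, 0 of 8 for Müller glia, 0 of 7 for bipolar cells, 0 of 8 for amacrine and horizontal cells, 0 of 8 for ganglion cells, 0 of 5 for microglia and 0 of 4 for endothelium were called. The part of other cells in the lower Rom1 and Reep6 levels was not tested.

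The genes whose levels over the 6 libraries were most like those of each member were found by the root mean square difference of centred log2 CPM. For Rom1 they were the water channel gene Aqp1 (0.04), Sema3f (0.06) and Sema7a (0.07), which encode semaphorins. For Reep6 those reported are Gnat1 (0.07), which encodes rod transducin alpha, and Msh5 (0.09). For Cdhr1 the list was Prnp (0.01), Pnkd (0.02) and Guca1b (0.02), the last of which encodes an activator of photoreceptor guanylate cyclase. For Tulp1 it was Gabbr2 (0.01), Cacna1f (0.02), the calcium channel gene of the photoreceptor synapse, and Hspa4l (0.02). Those nearest to Prom1, Rp1 and Rp1l1 lay between 0.01 and 0.03, and those nearest to Rpgr were Mfsd9 (0.05), Sdccag8 (0.06), a ciliopathy gene, and Slco2b1 (0.06).

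Further genes of the outer segment and its cilium were taken as lists chosen with earlier results known. Of 10 tested genes for disc and plasma membrane proteins 2 fell and 0 rose (median −0.06), beside 0.763% and 1.87% of all tested genes. Reported of the 2 that fell is Cngb1, which encodes a subunit of the rod cyclic-nucleotide-gated channel whose glutamic-acid-rich domain binds the disc rim. Cngb1 averaged 660 ± 40.1 CPM with spironolactone and 807 ± 71.9 CPM without it (SD, n = 3 each), a log2 fold change of −0.29 ± 0.07 (SE; edgeR, adjusted p = 0.0328). The call was lost on removal of replicate 1 (adjusted p = 0.187) or 2 (0.122) of the non-loaded group, or of replicate 2 (0.112) or 3 (0.145) of the spironolactone group. It was also lost when libraries were scaled to the rod markers, which include Cngb1 (log2 fold change −0.04, adjusted p = 0.774).

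Of 18 tested genes of the connecting cilium and axoneme 2 rose and 1 fell, beside 1.87% and 0.763% of all tested genes. Their median log2 fold change was 0.13, and 4 of the 18 values were below 0, beside 50.7% of all tested genes. Cep290, which encodes a scaffold between ciliary microtubules and membrane, had 279, 293 and 360 CPM with spironolactone, against 204, 214 and 222 CPM without it. It rose by 0.54 ± 0.08 on the log2 scale (SE; edgeR, adjusted p = 0.000842), and was still called when any single library was left out. Ttll5, whose product adds glutamate chains to Rpgr, rose by 0.34 ± 0.08 (SE; adjusted p = 0.0357), a call lost on removal of replicate 1 (0.173) or 3 (0.105) of the non-loaded group, or of replicate 2 (0.18) or 3 (0.192) of the spironolactone group. The centrin gene Cetn2 fell by 0.35 ± 0.08 on the log2 scale (SE; adjusted p = 0.0231), a call lost on removal of replicate 1 (0.0877) or 2 (0.0952) of the non-loaded group, or of replicate 2 (0.16) or 3 (0.104) of the spironolactone group. Scaled to the rod markers, Cetn2 was not called either (−0.10, adjusted p = 0.498), and Ttll5 stood at 0.60. Rpgrip1, which tethers Rpgr to the connecting cilium, measured 314 ± 45.6 CPM with spironolactone and 264 ± 23.4 CPM without it (SD, n = 3 each) and did not pass (log2 fold change 0.25 ± 0.09, adjusted p = 0.153).

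**Figure D5:**
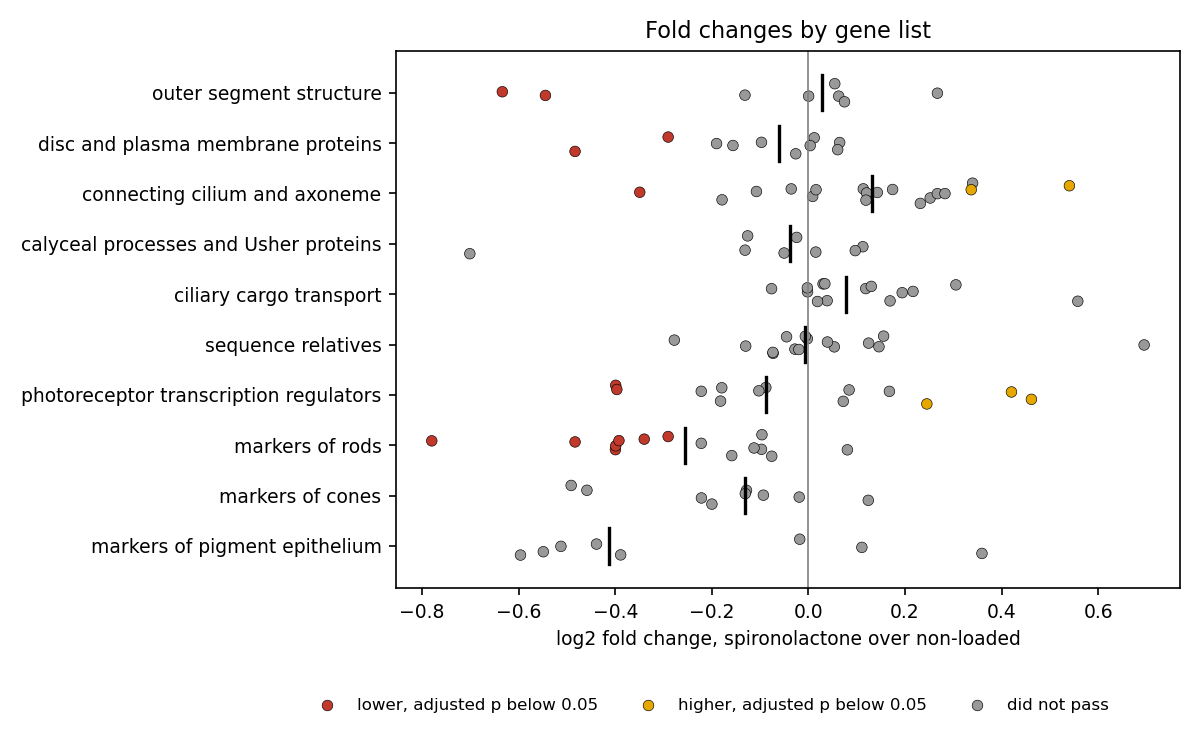
Log2 fold change, spironolactone over non-loaded, of each tested gene in the group described and in 9 other lists, with 1 point per gene and a black bar at the median of each list. Red points were called lower and yellow points higher at an adjusted p of 0.05, and vertical scatter within a row has no meaning; the medians run from −0.41 (pigment epithelium markers) to 0.13 (connecting cilium and axoneme).

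No gene was called in the lists for ciliary cargo transport (0 of 14, median 0.08), for calyceal processes and Usher proteins (0 of 8, median −0.04), or for sequence relatives of the members (0 of 15, median −0.01). The smallest p in these lists belonged to Ift88, an intraflagellar transport gene (0.31 ± 0.09 on the log2 scale, adjusted p = 0.0826), Arl3 (0.17, adjusted p = 0.18), Myo7a (−0.70, 0.32), Whrn (0.10, 0.414), Tub (−0.13, 0.266) and Cdhr2 (−0.28, 0.275). Among relatives of Reep6, which encode proteins that shape the endoplasmic reticulum, Reep5 measured 249 ± 2.52 CPM with spironolactone and 262 ± 10.2 CPM without it (SD, n = 3 each; log2 fold change −0.07 ± 0.06, adjusted p = 0.571). Reep1, Reep2 and Reep3 did not pass either, with adjusted p between 0.675 and 0.811. Reep4, at only 12 to 34 expected counts per library, was higher with spironolactone but did not pass (log2 fold change 0.69 ± 0.32, SE, adjusted p = 0.307).

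Of 13 tested regulators of photoreceptor transcription 3 rose and 2 fell, beside 1.87% and 0.763% of all tested genes. Crx, the homeodomain factor of rods and cones, had 614, 604 and 599 CPM with spironolactone, against 489, 503 and 540 CPM without it, and its log2 fold change was 0.25 ± 0.06 (SE; edgeR, adjusted p = 0.0286). The rod factor gene Nr2e3 had 314, 279 and 222 CPM with spironolactone, against 343, 371 and 360 CPM without it, a log2 fold change of −0.40 ± 0.09 (SE; adjusted p = 0.0232). For Crx the call was lost on removal of replicate 1 (0.158) or 2 (0.133) of the non-loaded group, or of replicate 2 (0.145) or 3 (0.0643) of the spironolactone group. For Nr2e3 it was lost on removal of replicate 1 (0.062), 2 (0.0952) or 3 (0.0557) of the non-loaded group, or of replicate 2 (0.124) or 3 (0.0616) of the spironolactone group. The other called regulators were Neurod1 (0.46 ± 0.07) and Mef2c (0.42 ± 0.07), which rose, and Samd7 (−0.40 ± 0.06), which fell, with adjusted p between 0.000697 and 0.00229, and these 3 were still called when any single library was left out. Scaled to the rod markers, which include Nr2e3, neither Samd7 (−0.15, adjusted p = 0.276) nor Nr2e3 (−0.16, 0.236) was called, and Crx (0.49), Neurod1 (0.72) and Mef2c (0.67) were called higher. Otx2 was listed at 0 in all 6 libraries, and whether this reflects expression or the annotation was not tested.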

How the data were processed

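The deposited values are expected counts, TPM and FPKM per gene in 1 RSEM table per sample, made by the authors and used as named per the file headers. STAR 2.5.3a, RSEM 1.2.28, Trimmomatic, FastQC and the rn6 build are named, without roles, in the submitters' processing notes, and per the labels' protocols a stranded mRNA kit was used; the strand setting and the annotation version are not stated there. Gene lengths deposited by the authors, as other values per the file headers, were used in alternatives.

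Expected counts (0.437% to 0.469% of values fractional) were rounded, filtered with filterByExpr and fitted in edgeR 4.0.16 (TMM, glmQLFit, glmQLFTest, two-sided, R 4.3.3). P-values were adjusted over all 13242 tested genes by Benjamini-Hochberg, with a threshold of 0.05. The SE is the log2 fold change over the square root of F. Groups come from the labels' treatment field; no batch is labelled. The test was checked on simulated counts. Members and lists were chosen with earlier results of these data known. Named were all members, the called genes of each list or else the 2 with the smallest p, and the 3 genes of mean log2 CPM of at least 3 nearest to each member; of called rod markers the text names a part, 1 gene that the rule names is not reported here, and Rpgrip1 and the Reep relatives were named after their values were seen. Replicates were numbered in accession order. Intervals rest on the spread between libraries as the fit moderates it over all genes, and the counting error of Rpgr covers counting only. Alternatives used DESeq2 1.42.0, limma 3.58.1, other scalings and filters, TPM, lengths, the title number, and each library left out.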

Additional observations from a re-analysis of the deposited data

How the results depend on the processing

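In all, 348 genes were called (71.0% higher). Other settings called 593 at an adjusted p of 0.1, 602 without a filter, 100 on log2(TPM + 1) (82% higher), 95 on log2(TPM + 0.1) (83.2% higher), 0 with the title number as covariate (562 at an unadjusted p below 0.05) and 3573 scaled to the rod markers (99.4% higher). Leaving out a library gave 111 to 621. Of the 8 members, 2 were called under every setting except 4 that called 0 (robust shrinkage, log2(TPM + 1), log2(TPM + 0.1), title number) and the rod scaling, which called 7. For TPM, adjusted p values of Rom1 and Reep6 lay between 0.0666 and 0.0707. The rod scaling shifts the log2 fold changes of all genes nearly alike, and the cause of the other changes was not tested. The difference of the log2 Rp1 to Rp1l1 ratios ranged from −0.12 to −0.0069 with a library left out.

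The sign of the uncalled Rp1 value (0.00042) turned with RLE factors (−0.00043), upper-quartile factors (−0.0072), DESeq2 (−0.00044), limma-voom (−0.00020), the length trend removed (−0.042) and without mitochondrial genes (−0.0030), and ranged from −0.047 to 0.037 with a library left out. With the title number as covariate Rom1 (0.30), Rp1 (−0.14), Rp1l1 (−0.065), Cngb1 (0.15), Cep290 (−0.11), Cetn2 (0.080), Ttll5 (−0.32), Mef2c (−0.047) and Nr2e3 (0.23) turned sign, and Cdhr1 (0.12) did so when scaled to the rod markers. Cngb1, Cetn2, Ttll5, Nr2e3 and Crx did not pass on either TPM scale, nor Nr2e3 with robust shrinkage (adjusted p = 0.143). DESeq2 gave Rpgr no adjusted p.

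The rod scaling, the length trend and the removal of mitochondrial genes were chosen after seeing the data. The planned ratio of Rom1 to Prph2 was not run. No paired analysis was possible because the labels give the groups no shared replicate numbers. With a library left out, 1 group has 2 samples. Rpgr had the lowest counts of the 8 genes, and what part depth had in its missing call was not tested.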
